A study of Mus musculus with 4 samples.

Results

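Upper glycolysis carries glucose from its first phosphorylation to the formation of fructose bisphosphate, and the 10 genes described here encode the isozymes that catalyse or regulate those steps. They were taken by symbol from the table of 35798 named genes, and all 10 were found: the hexokinases Hk1, Hk2 and Hk3, the ADP-dependent glucokinase Adpgk, the phosphofructokinase subunits Pfkl, Pfkm and Pfkp, and the bifunctional regulators Pfkfb2, Pfkfb3 and Pfkfb4. RNA was sequenced from Ly49H+ natural killer (NK) cells of CD45.1 wild-type (WT) and CD45.2 TNFR2 knockout (TNFR2 KO) donors, all young adult mice. Cells of both genotypes had been transferred together into NSG mice, an immunodeficient strain that lacks T, B and NK cells of its own but keeps myeloid cells, and the hosts were infected with murine cytomegalovirus (MCMV). Ly49H+ cells carrying 1 or the other CD45 allele were sorted from the spleen 3.5 days after infection, with 2 libraries per genotype and 4 in all. Each library came from the spleens of 3 mice pooled together. Per the labels, WT and TNFR2 KO libraries with the same number shared their pooled spleens. Whether libraries 1 and 2 came from separate pools was not stated, and the paper describes a single experiment in duplicate from a pooled spleen sample. The CD45 allele and the gate that selected it differed along with the genotype, and their effects cannot be told apart.

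Hexokinases trap glucose in the cell as glucose-6-phosphate, and phosphofructokinase then commits it to glycolysis. The Pfkfb enzymes make and degrade another fructose bisphosphate that is a strong activator of phosphofructokinase. The isozymes differ in regulation, location and tissue, and activated lymphocytes are known to raise glycolysis and to induce Hk2, whereas Hk3 is best known from myeloid cells.

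Libraries held 32713256 to 39543650 counts, so that a count of 0 allows up to 0.0776 to 0.0936 CPM (3 counts per library, counting error only). Expression is given as CPM (a gene's counts relative to the library total) scaled with TMM factors, and differences as log2-fold changes of TNFR2 KO over WT with their standard error (SE) from edgeR's quasi-likelihood test. P-values were adjusted over 13822 genes with the Benjamini-Hochberg method. Tnfrsf1b, which encodes TNFR2, was at 264.7 and 268.6 CPM in the WT libraries against 55.1 and 58.6 CPM in the knockout, and its log2-fold change was -2.23 (SE 0.0352, adjusted p = 1.35e-13). These values count reads over the whole gene, and the part of it altered in the knockout was not looked at separately.

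Hk2, Hk3 and Pfkfb4 were lower in the TNFR2 KO libraries by more than a log2-fold change of 1, while Hk1, Adpgk, Pfkl, Pfkm and Pfkfb3 were lower by less. Pfkp, the most highly expressed of the 10, was slightly higher, a direction that turned with another scaling described below, and Pfkfb2 did not pass the test. All 10 genes passed the low-count filter. An adjusted p under 0.05 was reached by 8 of 10 in the lower direction, where 26.2% of all genes tested were called, and by 1 of 10 in the higher direction, where 24.2% were. In either direction it was 9 of 10, against 50.4%. The study also asked for a log2-fold change beyond 1 in size, and both thresholds were passed by 3 of 10 in the lower direction, against 11.8% of all genes, and by 0 of 10 in the higher direction, against 1.56% (13.3% of all genes in either direction). The WT and TNFR2 KO values did not overlap for 9 of 10 genes, and they did not overlap for 74% of all genes tested. The median log2-fold change was -0.43 over the 10 genes and 0.00 over all genes tested. With libraries scaled on NK lineage genes in place of TMM, 8 of 10 isozymes passed both thresholds, all lower, against 34.7% of all genes (13.3% with TMM). That was 4790 genes, of which 4765 were lower (1627 of 1842 with TMM). The median over all genes tested moved to -0.88 with this scaling.

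**Figure D1:**
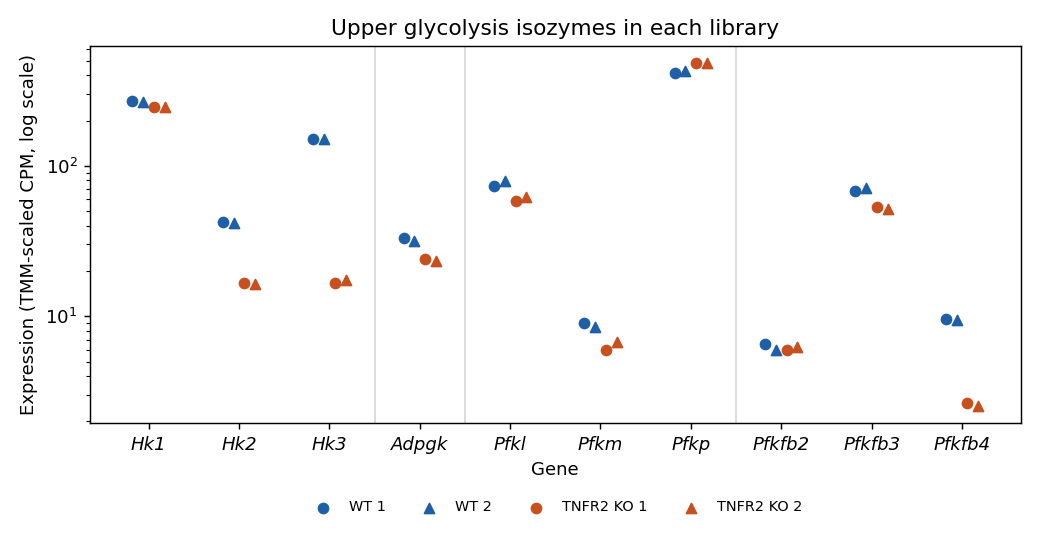
Expression of the 10 isozymes in each library, in TMM-scaled CPM on a log axis, with WT libraries in blue and TNFR2 KO libraries in orange, and with circles for replicate 1 and triangles for replicate 2. Hk3 stood near 150 CPM in both WT libraries and near 17 CPM in both TNFR2 KO libraries, whereas the Pfkfb2 values of the genotypes overlapped.

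The stretch directly before the start site is printed for Hk2 and Hk3, the hexokinases that passed both thresholds. Each is 250 bases long, from RefSeq on GRCm38.p6, 5′ to 3′ on the strand of the gene: chr6:82774455-82774704 (minus strand) for Hk2 and chr13:55021386-55021635 (minus strand) for Hk3. Capitals mark matches on either strand to ACGTG and to GAGGAA, a core bound by the myeloid factor PU.1. ACGTG is a form of the core of the sites bound by hypoxia-inducible factors (HIF). The other form, GCGTG, was not marked or counted.
Hk2: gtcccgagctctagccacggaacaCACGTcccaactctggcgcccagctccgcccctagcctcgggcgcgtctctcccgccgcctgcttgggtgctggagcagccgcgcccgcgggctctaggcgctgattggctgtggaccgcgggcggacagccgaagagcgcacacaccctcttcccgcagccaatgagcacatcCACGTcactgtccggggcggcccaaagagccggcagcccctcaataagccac
Hk3: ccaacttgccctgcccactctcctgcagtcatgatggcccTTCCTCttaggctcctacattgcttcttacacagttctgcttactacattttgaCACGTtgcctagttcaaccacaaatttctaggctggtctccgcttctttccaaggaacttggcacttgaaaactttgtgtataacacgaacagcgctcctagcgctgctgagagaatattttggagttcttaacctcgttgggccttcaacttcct

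The Hk2 window held 2 matches to ACGTG and 0 to the PU.1 core, and the Hk3 window held 1 of each. The window of Pfkfb4, at chr9:108991652-108991901 (plus strand), held neither ACGTG nor the PU.1 core. Over all 32851 windows of this length, 16.6% held ACGTG and 23.3% the PU.1 core. Several of the 10 genes have more than 1 start site, and of their 17 windows, some of which overlap, 9 held ACGTG and 8 the PU.1 core. By gene, ACGTG was found for 6 of 10 (Adpgk, Hk2, Hk3, Pfkfb2, Pfkfb3 and Pfkm) and the PU.1 core for 5 of 10 (Adpgk, Hk1, Hk3, Pfkfb3 and Pfkm). These counts by gene cannot be set against the shares of windows, since a gene with more start sites has more windows. The share by gene over all genes was not computed. Hk1, Pfkl, Pfkp and Pfkfb4 had no ACGTG, but GCGTG occurs in a window of each. The NF-kB consensus was found in 1 of the 17 windows, for start site 2 of Pfkfb2, and in 5% of all windows. The bases just after that start were found in no annotated transcript of the gene (GENCODE M21). The same held for start site 1 of Pfkfb2 and start site 4 of Pfkm. The matches describe letters in these windows and say nothing of binding.

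Of the hexokinases, Hk3 had the largest difference among the 10 genes. Hk3 (chr13:55005985-55021385, minus strand, GRCm38) was at 150.2 and 150.8 CPM in the WT libraries against 16.6 and 17.4 CPM in the knockout. Both WT libraries were thus 8.85-fold above the TNFR2 KO libraries on average, and replicates within a genotype lay close together. The log2-fold change was -3.15 (SE 0.0436, adjusted p = 4.38e-14).

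Hk2 (chr6:82725025-82774454, minus strand), the inducible isozyme that binds mitochondria, was at 42.2 and 42.0 CPM in the WT libraries against 16.6 and 16.4 CPM in the knockout. The genotypes did not overlap, and Hk2 fell by 1.35 on the log2 scale (SE 0.0557, adjusted p = 9.58e-10). Hk1 (chr10:62268855-62379908, minus strand), the widely expressed isozyme that also binds mitochondria, was at 270.1 and 267.4 CPM in WT and at 246.9 and 245.3 CPM in TNFR2 KO. Its difference was small but larger than the spread between replicates, with a log2-fold change of -0.13 (SE 0.0260, adjusted p = 0.00145).

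Summed over the 3 hexokinases, expression was 462.4 and 460.2 CPM in WT and 280.1 and 279.1 CPM in TNFR2 KO, lower by 39.4% in the knockout. Hk3 made up 73.5% of that difference in summed CPM, Hk2 14.1% and Hk1 12.5%. This split rests on the scaling: with NK lineage scaling, added as an alternative for it after seeing the data, the log2 difference of the sum went from -0.72 to -1.60, with 45.7% of the difference in CPM from Hk3, 43.6% from Hk1 and 10.7% from Hk2. The make-up of the family therefore differed between the genotypes. Hk1 held 58.4% and 58.1% of the hexokinase counts in the WT libraries and 88.1% and 87.9% in the TNFR2 KO libraries. The share of Hk3 was 32.5% and 32.8% in WT and 5.93% and 6.24% in TNFR2 KO, a difference of -26.5 percentage points. Hk2 went from 9.12% in each WT library to 5.92% and 5.88% in the TNFR2 KO libraries. For a single share, the exact two-sided permutation test of 2 libraries against 2 cannot give a p under 0.333, which every isozyme share described here reached.

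Counts favour long transcripts, and shares of molecules need a correction for length. With CPM divided by the length of the longest coding transcript (GENCODE M21), Hk1 averaged 53.6% of the hexokinase family in WT and 87.4% in TNFR2 KO. Hk3 averaged 39.9% and 8.03%, and Hk2 6.51% and 4.55%. On either scale Hk1 was the most abundant hexokinase in both genotypes.

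**Figure D2:**
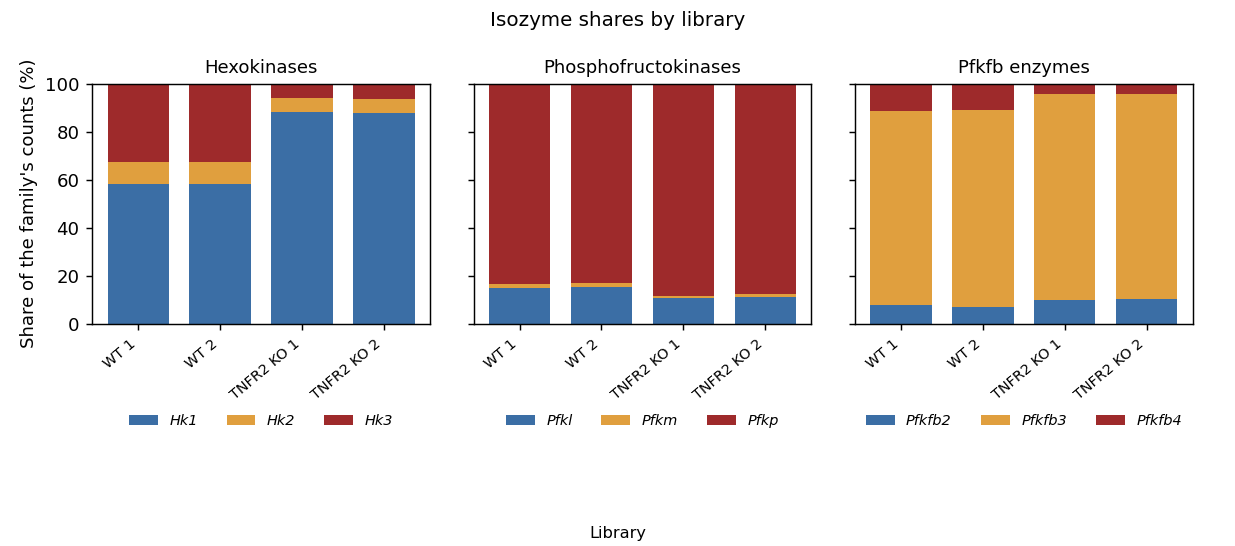
Share of each isozyme in the counts of its family, in percent, for each of the 4 libraries, with hexokinases on the left, phosphofructokinase subunits in the middle and Pfkfb enzymes on the right. The Hk3 segment was 32.5% and 32.8% in WT and 5.93% and 6.24% in TNFR2 KO, while Pfkp and Pfkfb3 stayed the largest segments of their families in all 4 libraries.

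Adpgk (chr9:59291558-59324052, plus strand) phosphorylates glucose with ADP in place of ATP. It was at 33.0 and 31.8 CPM in WT and at 24.1 and 23.3 CPM in TNFR2 KO, with a log2-fold change of -0.45 (SE 0.0568, adjusted p = 3.10e-05). The WT libraries were both above the TNFR2 KO libraries.

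Among the phosphofructokinase subunits, which form tetramers, Pfkp (chr13:6579768-6648777, minus strand), the platelet type, dominated. It was at 413.6 and 426.0 CPM in WT and at 482.0 and 480.2 CPM in TNFR2 KO, so that the TNFR2 KO libraries were both higher, by 1.15-fold on average. The log2-fold change was 0.20 (SE 0.0252, adjusted p = 3.57e-05). With libraries scaled on NK lineage genes instead, the median of all genes moved to -0.88 and Pfkp fell by 0.68 on the log2 scale (adjusted p = 2.01e-10), which is 0.20 above that median. Of the Pfkp transcripts' 31-base stretches, 5.29% also occur in another gene on either strand, most often Pitrm1.

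Pfkl (chr10:77986947-78010083, minus strand), the liver type, was at 73.4 and 79.7 CPM in WT and at 58.2 and 61.9 CPM in TNFR2 KO. Its genotypes did not overlap, and the log2-fold change was -0.35 (SE 0.0496, adjusted p = 8.13e-05). Pfkm (chr15:98092589-98132451, plus strand), the muscle type, was low in all libraries, at 9.07 and 8.46 CPM in WT and at 5.95 and 6.74 CPM in TNFR2 KO. Its log2-fold change of -0.47 (SE 0.125) had an adjusted p of 0.00781, which became 0.0653 without WT replicate 1 (log2-fold change -0.41). Of its 31-base stretches 9.35% are found in another gene on either strand, most often Gm26513.

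The summed phosphofructokinase expression was 496.0 and 514.2 CPM in WT and 546.1 and 548.9 CPM in TNFR2 KO, higher by 8.39% on the TMM scale, and this direction also turned with NK lineage scaling (log2 difference 0.12 with TMM, -0.76 with NK lineage scaling). Shares within the family do not depend on the scaling between libraries. Pfkp held 83.4% and 82.9% of the family's counts in WT and 88.3% and 87.5% in TNFR2 KO. Pfkl held 14.8% and 15.5% in WT against 10.7% and 11.3% in TNFR2 KO, and Pfkm held under 2% in all 4 libraries.

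The Pfkfb enzymes set the level of the activator of phosphofructokinase. Pfkfb4 (chr9:108991778-109032228, plus strand), an isozyme known to be induced by hypoxia, was at 9.62 and 9.44 CPM in WT (365 and 348 counts) and at 2.64 and 2.53 CPM in TNFR2 KO (102 and 81 counts). Both WT libraries were well above both TNFR2 KO libraries, 3.68-fold on average, and the log2-fold change was -1.88 (SE 0.140, adjusted p = 2.61e-07).

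Pfkfb3 (chr2:11471433-11554077, minus strand), whose kinase activity far exceeds its phosphatase activity, was the most abundant member of its family. It was at 68.3 and 71.1 CPM in WT and at 52.9 and 51.9 CPM in TNFR2 KO, with a log2-fold change of -0.41 (SE 0.0425, adjusted p = 5.50e-06). Its genotypes did not overlap. Pfkfb2 (chr1:130689182-130729253, minus strand), the heart type, was at 6.57 and 5.97 CPM in WT and at 5.998 and 6.27 CPM in TNFR2 KO. The groups overlapped, and the log2-fold change was -0.03 (SE 0.134, adjusted p = 0.868). Of its 31-base stretches 18.9% also occur in another gene on either strand, most often Gm29427, so its counts are uncertain.

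The summed expression of the 3 Pfkfb genes was 84.5 and 86.5 CPM in WT and 61.6 and 60.7 CPM in TNFR2 KO, lower by 28.5% in the knockout, with 71% of that difference from Pfkfb3 and 28.5% from Pfkfb4. With NK lineage scaling the log2 difference of the sum went from -0.48 to -1.36, and 78.8% of the difference in CPM came from Pfkfb3 and 15.6% from Pfkfb4. Pfkfb4 held 11.4% and 10.9% of the family's counts in WT and 4.28% and 4.17% in TNFR2 KO. Pfkfb3 held 80.8% and 82.2% in WT and 86.0% and 85.5% in TNFR2 KO, and Pfkfb2 held 7.77% and 6.90% in WT and 9.74% and 10.3% in TNFR2 KO. The share of Pfkfb2 was thus higher although its own expression did not pass the test. The remaining family gene, Pfkfb1, was at 4.51 and 3.55 CPM in WT and at 4.73 and 3.90 CPM in TNFR2 KO (log2-fold change 0.10, adjusted p = 0.673), which were overlapping values.

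**Figure D3:**
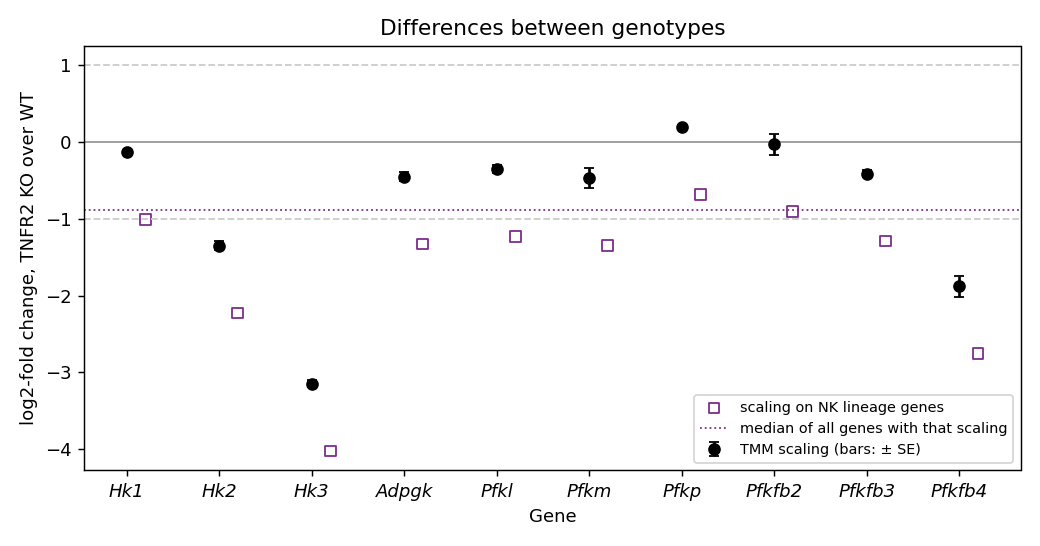
Log2-fold change of TNFR2 KO over WT for each isozyme, with TMM scaling as black circles (bars ± SE) and with scaling on NK lineage genes as open purple squares, the dashed lines marking an absolute log2-fold change of 1 and the dotted line the median of all genes under the second scaling, -0.88. Hk3, Pfkfb4 and Hk2 lay lowest under both scalings, and Pfkp was above 0 with TMM (0.20) and below 0 with NK lineage scaling (-0.68).

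Per kilobase of the longest coding transcript, the order of expression in WT was Pfkp (101.3 CPM per kb), Hk1 (62.8), Hk3 (46.7), Pfkl (20.5), Pfkfb3 (14.5), Adpgk (13.0), Hk2 (7.63), Pfkm (3.05), Pfkfb4 (2.73) and Pfkfb2 (1.42). In TNFR2 KO it was Pfkp (116.1 CPM per kb), Hk1 (57.5), Pfkl (16.1), Pfkfb3 (10.9), Adpgk (9.54), Hk3 (5.29), Hk2 (2.99), Pfkm (2.20), Pfkfb2 (1.39) and Pfkfb4 (0.74). Hk3 was the third of the order in WT and came after Adpgk in TNFR2 KO, and Pfkfb4 went from above Pfkfb2 to below it. No neighbours in either order overlapped between libraries, but the order rests on the lengths chosen: with the median length of transcripts in the consensus coding set, Pfkfb3 stood above Pfkl in both genotypes, and Pfkm and Pfkfb2 overlapped in TNFR2 KO.

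Of 14 other genes of early glycolysis and of the reverse, gluconeogenic steps, 8 could be tested. Of these, 4 were lower and 0 were higher at an adjusted p under 0.05, against 26.2% and 24.2% of all genes tested. Past both thresholds 1 of the 8 was lower, which is near the 11.8% of all genes. The median log2-fold change of the 8 was -0.14. Aldoa, the aldolase that splits fructose bisphosphate, was at 894.1 and 907.8 CPM in WT and at 741.4 and 740.8 CPM in TNFR2 KO (log2-fold change -0.28, SE 0.0223, adjusted p = 4.73e-07). Tpi1, which interconverts the aldolase products, was lower by a like amount, from 325.5 and 329.9 CPM to 270.5 and 267.4 CPM (log2-fold change -0.28, adjusted p = 1.51e-06). Gpi1, which lies between the hexokinase and phosphofructokinase steps, was at 500.0 and 497.1 CPM in WT and at 499.8 and 492.9 CPM in TNFR2 KO. Its log2-fold change of -0.01 did not pass the test (adjusted p = 0.853).

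Among genes of the reverse steps, G6pc3, a ubiquitous glucose-6-phosphatase, was at 20.3 and 18.3 CPM in WT and at 15.3 and 14.0 CPM in TNFR2 KO (log2-fold change -0.40, adjusted p = 0.00194). Fbp1, fructose bisphosphatase, had 21 and 20 counts in WT and 1 and 4 counts in TNFR2 KO (log2-fold change -2.88, adjusted p = 0.00478). G6pc and G6pc2 had 0 counts in every library, and Hkdc1 and Fbp2 had at most 3. Tigar and Aldoc did not pass the test (adjusted p = 0.803 and 0.711).

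Most tested markers on the myeloid, megakaryocyte and erythroid lists were lower in TNFR2 KO, whereas T and B cell markers had no single direction. The sort was for Ly49H+ NK cells, and the NK markers Ncr1 (258.3 and 255.5 CPM in WT, 511.3 and 510.5 CPM in TNFR2 KO) and Klra8, the gene of Ly49H (313.3 and 315.9 CPM against 762.1 and 725.8 CPM), were present in all libraries. Of 24 NK lineage genes, 22 were higher in TNFR2 KO and 0 were lower at an adjusted p under 0.05. Their summed expression was 19494 and 19418 CPM in WT and 35968 and 35515 CPM in TNFR2 KO. The largest parts of that sum were Gzma (5831 and 5779 CPM in WT, 12386.5 and 12140.3 CPM in TNFR2 KO) and Gzmb (3894 and 3859 CPM against 6589 and 6491 CPM). NK lineage scaling used the summed counts of this list, so these genes weighed most in it. In bulk samples such as these, fewer cells of a type and less RNA per cell cannot be told apart.

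Of 25 macrophage or monocyte markers, 24 were tested, 21 were lower in TNFR2 KO past both thresholds and 3 (Ly6c2, Ccr2 and Cx3cr1, which NK cells are also known to express) were higher at an adjusted p under 0.05. The summed expression of the list was 3526 and 3465 CPM in WT and 1447 and 1427 CPM in TNFR2 KO, and Clec4f had 0 counts in all libraries. Most of the TNFR2 KO sum came from Ccr2 (403.5 and 384.0 CPM in WT, 686.6 and 669.7 CPM in TNFR2 KO) and Ly6c2 (267.6 and 255.8 CPM against 312.4 and 314.8 CPM). Csf1r, the receptor that maintains macrophages, was at 254.2 and 255.5 CPM in WT and at 27.4 and 26.7 CPM in TNFR2 KO (log2-fold change -3.24). Hk3, at -3.15, had a log2-fold change close to the median of this list, -2.996. Of the neutrophil or granulocyte precursor markers, 18 of 19 tested fell past both thresholds and 1, Padi4, was higher at an adjusted p under 0.05 (log2-fold change 0.30), with sums of 1085 and 1101 CPM in WT and 123.1 and 119.2 CPM in TNFR2 KO. Of 12 mast cell or basophil markers tested, 11 fell past both thresholds, with sums of 1286 and 1283 CPM against 103.3 and 103.2 CPM. The remaining one, Cma1, a mast cell protease, rose past both thresholds, from 21.9 and 23.1 CPM in WT to 71.9 and 73.3 CPM in TNFR2 KO, and made up most of the TNFR2 KO sum.

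Lower sums in TNFR2 KO were also found for dendritic cell or class II markers (2188 and 2215 CPM against 1039 and 1063 CPM, with 7 of 12 lower and 1 higher past both thresholds), for megakaryocyte markers (115.4 and 114.2 CPM against 83.1 and 83.6 CPM, 10 of 11) and for erythroid markers (288.6 and 283.3 CPM against 60.6 and 64.6 CPM, 9 of 11). The higher dendritic cell marker was Itgax, the gene of CD11c, at 419.0 and 408.9 CPM in WT and at 882.5 and 908.3 CPM in TNFR2 KO, most of that sum. Of the megakaryocyte markers Itgb3 was higher at an adjusted p under 0.05 (log2-fold change 0.17). It was at 70.1 and 71.0 CPM in WT and at 79.2 CPM in each TNFR2 KO library, most of the sum of that list. Of 13 T cell markers, 8 were lower and 2 were higher at an adjusted p under 0.05 and 0 passed both thresholds, with a median log2-fold change of -0.17. The lowest were Themis at -0.67, Cd4 at -0.56 and Cd8a at -0.48 on the log2 scale, beside -0.45 for Adpgk and -0.47 for Pfkm. The 2 higher ones were Trbc1 at 0.55 and Cd3g at 0.10, and Cd8b1 (-0.02) and Trbc2 (-0.02) did not pass the test, so the list had no single direction. Of the 4 B cell markers tested, 1 was lower and 2 were higher at an adjusted p under 0.05, and 0 passed both thresholds. The part of these cell types in the values of Hk2, Hk3, Pfkfb4 and the other isozymes was not tested.

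**Figure D4:**
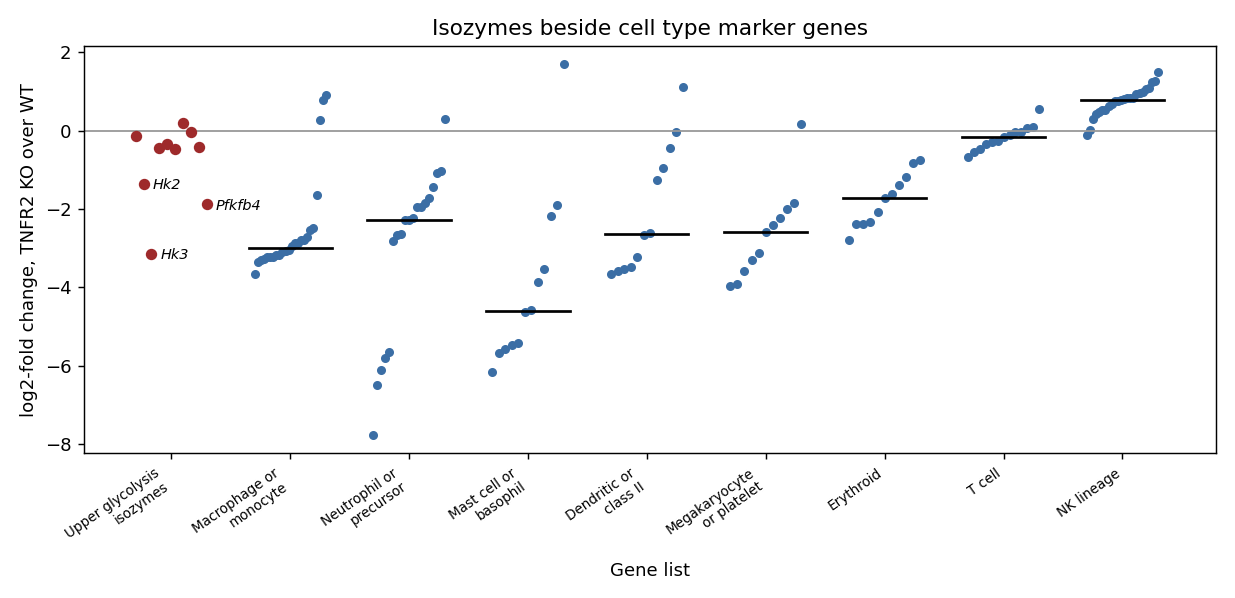
Log2-fold change of TNFR2 KO over WT for the 10 isozymes (red) and for the tested genes of 8 cell type marker lists (blue), with a black bar at the median of each list. Hk3 lay at -3.15 beside a macrophage or monocyte median of -2.996, whereas the NK lineage genes had a median of 0.79.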

How the data were processed

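The authors prepared poly-A selected, stranded libraries sequenced as 100 bp paired-end reads on a NovaSeq instrument. Per the labels and the methods, reads were trimmed (Trimmomatic 1.4), assigned to mm10 transcripts (kallisto 0.46.1) and summed per gene with Tximport, and expected counts (estimated counts) were deposited unscaled for each gene symbol. Which transcript annotation was used was not given in the sources used here.

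Expected counts were rounded, and a row without a gene name (0.0559% to 0.0728% of counts) was left out. Genes passing filterByExpr were tested with edgeR 4.0.16 in R 4.3.3 (TMM, quasi-likelihood, genotype as the only term), and the steps were first tested on simulated data. Calls needed an adjusted p under 0.05 and, where both thresholds are named, a log2-fold change beyond 1 in size. Replicates of a group differed by more than sampling noise (chi-square per gene 3.36 in WT and 3.58 in TNFR2 KO), and with 2 libraries per genotype from a single experiment p-values measure only the spread between these libraries, which may be technical. Labels state that same-numbered libraries share their pooled spleens, which allows them to be paired. The labels do not say whether the numbers stand for separate pools. Across genes, WT and TNFR2 KO libraries of the same number deviated from the means of their groups with a correlation of 0.0575.

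Named were all 10 isozymes, Tnfrsf1b, pathway genes that passed the adjusted p or were the most abundant, and markers that were at 0 or moved with an isozyme. The isozymes and lists were chosen with earlier results of these data known. Pathway genes that did not pass the test, and Pfkfb1, Hkdc1 and Fbp2, were named to account for their lists. Some listed genes are not reported here. Shares are a gene's percent of its family's counts. Lengths, positions and shared 31-base stretches came from GENCODE M21 (GRCm38), standing in for the authors' annotation, and promoters from RefSeq. Stretches shared in the same or the opposite direction were both counted. The strand setting of the authors' read assignment was not given in the sources used here. Alternatives were other scalings, filters, DESeq2 1.42.0, the replicate block, each library left out, and shares per length.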

Additional observations from a re-analysis of the deposited data

How the results depend on the processing

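Of the alternatives to the results, 208 values were labelled the same, 31 moved, 4 reversed, 1 weaker and 1 stronger. For log2-fold changes, the same means an unchanged direction and side of the adjusted p threshold, whatever the size. Hk1, Adpgk, Pfkl, Pfkm and Pfkfb3 thus count as the same with NK lineage scaling, although they passed the log2-fold threshold only there. For shares and sums, the same means a move smaller than the spread between replicates. Scaling on NK lineage genes moved the median over all genes to -0.88 on the log2 scale. The count past both thresholds went from 1842 (1627 of them lower) to 4790 (4765 lower), or from 13.3% to 34.7% of genes tested. With it 8 of the 10 isozymes passed both, Pfkp was at -0.68, Pfkfb2 passed at -0.91 (adjusted p = 3.73e-05), and the summed log2 differences were -1.60 for hexokinases, -0.76 for phosphofructokinases and -1.36 for the Pfkfb enzymes. Requiring a mean of 10 CPM left 478 genes called of the 8763 tested, and Pfkm, Pfkfb2 and Pfkfb4 were not tested. Scaling by library size alone gave summed log2 differences of -0.78 for hexokinases, 0.0557 for phosphofructokinases and -0.54 for the Pfkfb enzymes, and upper-quartile scaling gave -0.71 for hexokinases.

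The paired fit with the replicate block called 1830 genes and changed no call among the 10 isozymes. Leaving out each library in turn gave 1650 to 1867 called genes, with 3 isozymes past both thresholds each time, and log2-fold changes from -0.56 to -0.37 for Pfkm and from -0.0898 to 0.0474 for Pfkfb2, whose direction turned without WT replicate 1 and without TNFR2 KO replicate 1.

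Per length of the longest coding transcript, the differences in share (percentage points, TNFR2 KO minus WT) were 33.8 for Hk1, -1.96 for Hk2, -31.8 for Hk3, -0.80 for Pfkm, 5.25 for Pfkp, 5.92 for Pfkfb3 and -8.97 for Pfkfb4. Per median length of consensus coding transcripts, an alternative chosen after seeing the data, they were 33.4 for Hk1, -1.85 for Hk2, -31.6 for Hk3, -0.71 for Pfkm, 2.04 for Pfkfb2, 2.63 for Pfkfb3 and -4.67 for Pfkfb4. With Pfkfb1 in the family, the difference of Pfkfb3 was 2.24 and the summed log2 difference of the Pfkfb enzymes was -0.45. Depth limits Pfkm, Pfkfb2 and Pfkfb4 most, which were under 10 CPM in every library.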
